A study of Mus musculus with 8 samples.

Results

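The early B cell factor genes Ebf1, Ebf2, Ebf3 and Ebf4 were chosen by symbol, and all 4 were among the 27998 genes of the matrix. They were measured in single cells of the E15.5 mouse cerebral cortex, from the transgenic strain Tg(Ebf2-EGFP)FB58Gsat, in which Ebf2 regulatory sequence drives EGFP and marks preplate neurons and then Cajal-Retzius (CR) neurons. EGFP positive cells of about 8 embryos from 2 pregnant mice were sorted by FACS and captured on a droplet platform. The 8 labelled samples form 1 group with no other treatment, and their cells share 1 matrix without a map from cell to sample. The data were therefore treated as 1 library. No test between samples was possible, and the 95% intervals given with the values cover the error of counting and nothing else. EGFP transcripts were not analysed here.

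EBF proteins are DNA-binding transcription factors with an atypical helix-loop-helix that lets them bind as dimers, either with themselves or with one another. EBF1 is known for specifying B cells and for guiding striatal neuron differentiation, EBF2 for CR neurons, neuronal migration and brown fat, and EBF3 for neuronal differentiation and olfactory genes. EBF4 is the least studied member. CR neurons lie in layer 1 and secrete Reelin, the product of Reln. Because the cells were sorted on a reporter of Ebf2, a high Ebf2 level in the sorted cells as a whole could not be read as a result, and the question was how the family is shared out among them.

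In the GENCODE annotation of GRCm38, Ebf1 (ENSMUSG00000057098) lies on the plus strand of chromosome 11, 44617317 to 45008091. Ebf2 (ENSMUSG00000022053) lies on the plus strand of chromosome 14, 67233292 to 67430918. Ebf3 (ENSMUSG00000010476) lies on the minus strand of chromosome 7, 137193673 to 137314445, and Ebf4 (ENSMUSG00000053552) on the plus strand of chromosome 2, 130295169 to 130370481. The longest coding sequences have 1776, 1725, 1788 and 2088 bases. Identity over aligned coding bases was highest for Ebf1 and Ebf3, at 79.5%, and lowest for Ebf2 and Ebf4, at 69.1%. The stretch of 60 aligned coding bases that varies least among the paralogues is shown to let the members be compared where they are most alike over that length, with capitals at bases that differ from Ebf2.
Ebf2, exon 3, chr14:67237502-67237561, plus strand: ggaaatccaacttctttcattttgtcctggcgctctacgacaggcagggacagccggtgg
Ebf1, exon 2, chr11:44620467-44620526, plus strand: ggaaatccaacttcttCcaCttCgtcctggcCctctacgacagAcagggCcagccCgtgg
Ebf3, exon 2, chr7:137313562-137313621, minus strand: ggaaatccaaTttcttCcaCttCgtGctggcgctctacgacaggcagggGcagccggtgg
Ebf4, exon 3, chr2:130306461-130306520, plus strand: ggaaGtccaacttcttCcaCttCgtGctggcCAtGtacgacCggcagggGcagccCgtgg
Even here Ebf3 differed from Ebf2 at 6 bases, Ebf1 at 7 and Ebf4 at 11. The longest run of identical bases between any transcripts of 2 members was 27, for Ebf3 and Ebf4. No annotated gene overlaps a member on the same strand. Of the antisense genes, Gm12158 at Ebf1 had 2 UMIs and Gm6878 at Ebf2 had 13, against 1091 and 534 for the members themselves.

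The matrix held 3000 barcodes and 57180867 UMIs, the unique molecular identifiers by which transcripts are counted, and 2931 barcodes were kept. Reln-high barcodes, those with at least 5 Reln UMIs per 10000, numbered 470, or 16.0%, and the rest 2461. Reln-high barcodes were deeper, with a median of 21448 UMIs against 15272, so shares of barcodes with a UMI were taken at equal depth. UMIs of Xist together with Y-linked genes, a sign of more than 1 embryo in a droplet, were found in 61 Reln-high barcodes (13.0%) and 74 of the rest (3.01%). Ebf1 and Ebf3 were lower in those 61 (32.0 and 58.0 CPM, UMIs of the gene per 1000000 UMIs) than in the other Reln-high barcodes (65.6 and 86.2 CPM), and Ebf2 was 30.1 against 36.6 CPM. The label held against its markers, since 389 of the 470 fell in a CR-like cluster, which was built without the Ebf genes and Reln and in which all 7 CR markers were raised.

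Ebf2, the gene behind the sorting label, had 427 UMIs in the 470 Reln-high barcodes and 107 in the 2461 others. Single Reln-high barcodes had from 0 to 6 Ebf2 UMIs with a median of 0, and the rest from 0 to 8. The summed level was 35.2 CPM (31.9 to 38.7) in Reln-high barcodes and 2.51 (2.06 to 3.04) in the rest, a 14.0-fold ratio and 3.81 on the log2 scale (3.5 to 4.13). Reln-high barcodes thus held 80% of all Ebf2 UMIs, although they were selected from cells that had all been sorted on the Ebf2 reporter.

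Ebf3 showed the largest contrast of the family. It had 972 UMIs in Reln-high barcodes, from 0 to 11 per barcode with a median of 2, and 155 in the rest, where no barcode passed 6. The level was 80.1 CPM (75.2 to 85.3) against 3.64 (3.09 to 4.26), a 22.0-fold ratio and 4.46 on the log2 scale (4.21 to 4.71). Reln-high barcodes held 86.2% of its UMIs. The interval of the Ebf3 log2 ratio lay above that of Ebf2 here, but not under every alternative tried.

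Ebf1 was also higher in Reln-high barcodes but less so. It had 708 UMIs there, from 0 to 25 per barcode with a median of 0, and 383 in the rest, where the highest barcode had 38. The level was 58.4 CPM (54.1 to 62.8) against 9.0 (8.12 to 9.95), a 6.48-fold ratio and 2.70 on the log2 scale (2.52 to 2.88). The rest included 9 barcodes with 18 to 38 Ebf1 UMIs each, which together held 230 of the 383 UMIs (60.1%). Without these barcodes, which were picked out after their values were seen, the level in the rest was 3.61 CPM and the ratio 16.2-fold, or 4.02 (3.76 to 4.28) on the log2 scale.

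Ebf4 was close to absent. It had 48 UMIs in all, never more than 1 in a barcode, with 18 in Reln-high barcodes and 30 in the rest. The level was 1.48 CPM (0.879 to 2.35) against 0.705 (0.476 to 1.01), and the log2 ratio of 1.07 had an interval from 0.14 to 1.96. It was under the minimum of 100 UMIs set for a call.

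Against all genes with at least 100 UMIs, Ebf3 ranked 40 of 11288 by ratio, Ebf2 75 and Ebf1 179. Of these 11288 genes, 838 (7.42%) were at least 2-fold higher in Reln-high barcodes and 622 (5.51%) at least 2-fold lower. All 3 Ebf genes above the minimum were at least 2-fold higher, with a median log2 ratio of 3.81 against 0.11 over all genes tested. UMIs of the 9 mural and meningeal markers, cell types in which Ebf1 is also known, were higher in Reln-high barcodes too, at 27.4 against 2.23 CPM when summed, with 258 of the 332 UMIs from Rgs5 and Col3a1 and Col1a2 at 0. In the 292 Reln-high barcodes without any such UMI the levels were 60.01 CPM for Ebf1 (54.3 to 66.1), 33.0 for Ebf2 (28.8 to 37.6) and 81.2 for Ebf3 (74.6 to 88.2).

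**Figure D1:**
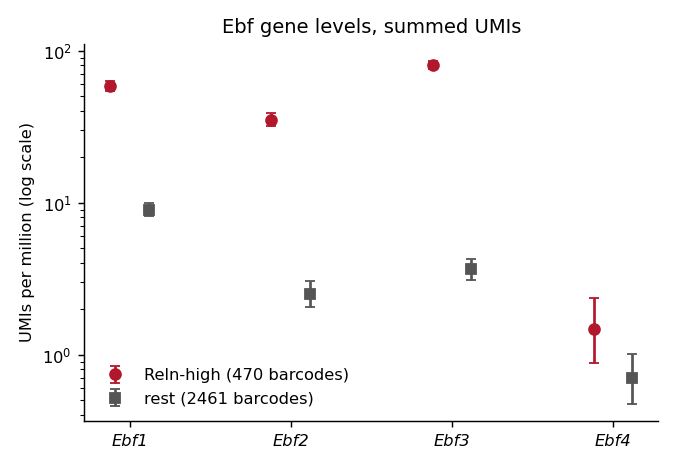
Level of each Ebf gene in CPM on a log scale, from summed UMIs, in the 470 Reln-high barcodes (circles) and the 2461 others (squares), with exact 95% Poisson intervals. The groups are separated for Ebf1, Ebf2 and Ebf3, most widely for Ebf3 (80.1 against 3.64), and the Ebf4 intervals overlap.

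Detection was then compared after thinning each barcode to a fixed number of UMIs, 74.5% of the median barcode's 15832, which 447 Reln-high and 2213 other barcodes reached. Ebf3 was found in 61.7% of Reln-high barcodes (57.1 to 66.3%) and in 2.53% of the rest (1.92 to 3.27%). Ebf1 was found in 35.3% (30.9 to 39.98%) and 3.39% (2.67 to 4.23%), and Ebf2 in 29.3% (25.1 to 33.8%) and 2.03% (1.49 to 2.71%). Ebf4 was found in 2.01% (0.925 to 3.79%) and 0.768% (0.448 to 1.23%). Without thinning, the Reln-high shares were 81.1% for Ebf3, 44.9% for Ebf1, 45.5% for Ebf2 and 3.83% for Ebf4. The corresponding shares of the rest were 4.10%, 4.67%, 2.68% and 1.22%. As a level of background, the 688 barcodes of the deep-layer-like cluster led by Fezf2 that were not Reln-high, of 16200 median UMIs, gave 2.91% for Ebf3 (1.78 to 4.45%), 2.03% for Ebf1 (1.12 to 3.39%), 1.31% for Ebf2 (0.600 to 2.47%) and 0.436% for Ebf4 (0.0900 to 1.27%) after thinning. In the 1525 other barcodes of the rest, of 15438 median UMIs, the shares were 2.36% (1.66 to 3.25%), 4% (3.07 to 5.11%), 2.36% (1.66 to 3.25%) and 0.918% (0.503 to 1.54%). The intervals of both sets overlapped for each of the 4 genes, for Ebf1 only between 3.07% and 3.39%. Overlap does not show that the sets are alike, and no interval of their difference was computed.

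The genes differed in how evenly their UMIs were spread over Reln-high barcodes. If each gene were at 1 level in all of them, counting alone would give a UMI in 64.9% for Ebf3 and 32.2% for Ebf2, near the observed shares and within their intervals. For Ebf1 it would give 53.9%, far above the 35.3% observed. The variance over the mean of the thinned counts was 3.08 for Ebf1, 1.23 for Ebf3, 1.22 for Ebf2 and 0.98 for Ebf4, where 1 is the value of even spread. Ebf1 was thus concentrated in fewer barcodes. At full depth, the 51 Reln-high barcodes with 5 or more Ebf1 UMIs held 55.5% of its UMIs there, while 13 such barcodes held 15.46% for Ebf2 and 50 held 30.6% for Ebf3. In the rest the ratio for Ebf1 was 11.8.

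**Figure D2:**
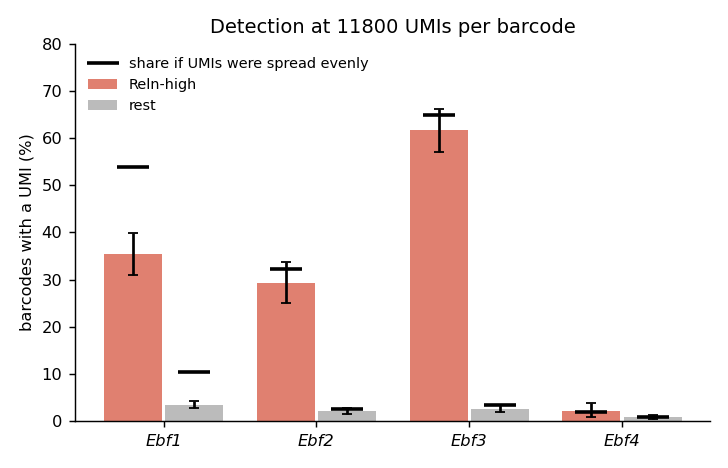
Share of barcodes with at least 1 UMI of each Ebf gene after thinning to equal depth, in Reln-high barcodes (left bars) and the rest (right bars), with exact 95% intervals. Black dashes mark the share that the same number of UMIs would give if spread evenly, and only Ebf1 falls well below its dash (35.3% against 53.9%).

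Read from the other side, a thinned Ebf3 UMI marked a Reln-high barcode in 276 of 332 cases (83.1%, 78.7 to 87.0%), an Ebf2 UMI in 131 of 176 (74.4%, 67.3 to 80.7%) and an Ebf1 UMI in 158 of 233 (67.8%, 61.4 to 73.8%). For Ebf4 it was 9 of 26 (34.6%). The intervals of Ebf3 and Ebf1 did not overlap, while that of Ebf2 overlapped both. Although Ebf2 drove the reporter, its own UMI singled out Reln-high barcodes no better than that of Ebf3.

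Co-detection in single barcodes was counted at the same depth. Of the 447 Reln-high barcodes, 77 had no Ebf gene (17.2%), 198 had 1 (44.3%), 141 had 2 (31.5%), 30 had 3 (6.71%) and 1 had all 4. At least 2 were found together in 172 (38.5%, 33.9 to 43.2%). In the rest, at least 1 was found in 179 of 2213 (8.09%) and at least 2 in 12 (0.542%, 0.280 to 0.945%).

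Within Reln-high barcodes, Ebf1, Ebf2 and Ebf3 were combined about as often as their single shares would give if they were unrelated. All of Ebf1, Ebf2 and Ebf3 were found in 28 barcodes, where the product of the shares gives 28.6, and none of them in 80, where it gives 78.2. Ebf2 and Ebf3 without Ebf1 were found in 56 (52.3 by the product), and Ebf1 and Ebf3 without Ebf2 in 65 (69.0). Ebf2 was detected in 31.0% of barcodes with Ebf1 and 28.4% of those without, a difference of 2.64 percentage points (-5.99 to 11.7). Ebf3 was detected in 64.1% with Ebf2 and 60.8% without, a difference of 3.36 points (-6.62 to 12.8), and in 58.9% with Ebf1 and 63.3% without, a difference of -4.46 points (-13.9 to 4.86). For all 6 pairs, those with Ebf4 included, the interval held 0. These intervals do not show that the genes are unrelated, since differences of several points in detection would lie within them. Over 20 repeats of the thinning the mean differences were 1.02 points for Ebf1 and Ebf2 (lowest -6.60, highest 6.04), 1.35 for Ebf1 and Ebf3 (-3.74 to 8.22) and 1.61 for Ebf2 and Ebf3 (-3.92 to 10.5), so that no sign was stable.

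**Figure D3:**
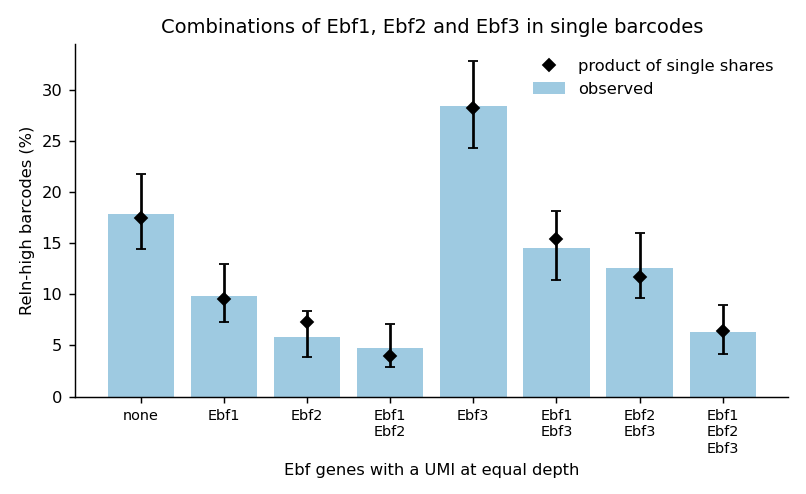
Share of the 447 thinned Reln-high barcodes with each combination of Ebf1, Ebf2 and Ebf3 UMIs (bars, with exact 95% intervals), and the share given by the product of the single shares (diamonds). Every diamond lies within the interval of its bar, and Ebf3 alone is the most frequent combination (28.4%).

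In other sets of barcodes, some of them subsets of these, the interval held 0 for most pairs. For Ebf2 and Ebf3 the difference was 11.2 points (-3.69 to 24.3) in Reln-high barcodes under 20 Reln UMIs per 10000. At 20 or more it was -5.32 points (-18.8 to 7.77). For Ebf1 and Ebf3 it was -20.4 points (-43.3 to 8.15) in Reln-high barcodes outside the CR-like cluster. The pairs that follow were picked because their intervals lay above 0, and the difference between sets was not tested. Among the 71 thinned Reln-high barcodes outside the CR-like cluster, Ebf3 was found in 13 of 16 with Ebf2 (81.2%) and 24 of 55 without (43.6%), a difference of 37.6 points (10.0 to 54.9). In the cluster led by Snhg11, described below, it was found in 13 of 33 with Ebf2 (39.4%) and 14 of 113 without (12.4%), a difference of 27.0 points (10.6 to 44.6). Both sets mix barcodes of high and low Reln or of several clusters. In the rest as a whole, Ebf1 and Ebf2 were found together in 9 barcodes against 1.53 by the product, a difference of 10.3 points (4.72 to 19.6), with an interval above 0 in all 20 repeats of the thinning. Of the 9 barcodes with many Ebf1 UMIs named above, 5 also had Ebf2 at full depth.

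The number of Ebf genes per barcode moved with the Reln level inside the Reln-high group. Barcodes with none of Ebf1, Ebf2 and Ebf3 had a median of 15.9 Reln UMIs per 10000 (80 barcodes), those with 1 had 19.0 (197), those with 2 had 20.5 (142) and those with all of them 23.6 (28). The share in the CR-like cluster was 72.5%, 83.8%, 88.7% and 96.4% in the same order. The quartiles of neighbouring classes overlapped, from 11.7 to 21.5 in the first and 18.7 to 29.4 in the last.

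Along the Reln level, Ebf2 and Ebf3 were higher in each bin from 2.5 Reln UMIs per 10000 upwards. Ebf1 did not rise steadily above the threshold, and which bin was highest depended on a single barcode. In 856 barcodes with no Reln UMI, Ebf2 was at 2.43 CPM, in 72 barcodes with 2.5 to 5 Reln UMIs per 10000 at 9.62 (4.97 to 16.8), in 51 with 5 to 10 at 17.0 (10.9 to 25.3), in 207 with 10 to 20 at 28.9 (24.5 to 33.8) and in 211 with 20 to 40 at 46.3 (40.7 to 52.4). Ebf3 took the values 2.96, 22.4 (14.9 to 32.4), 51.6 (40.5 to 64.9), 75.6 (68.4 to 83.4) and 92.2 CPM (84.3 to 101) in the same bins. Ebf1 was at 4.48, 28.1 (19.5 to 39.0), 77.8 (63.9 to 93.8), 45.3 (39.7 to 51.4) and 66.3 CPM (59.6 to 73.5). In the bin from 5 to 10, a single barcode held 25 of the 110 Ebf1 UMIs. Without it the level was 61.0 CPM, between those of the bins from 10 to 20 and from 20 to 40. The thinned share with Ebf1 was 29.5% (16.8 to 45.2%), 30.1% (23.7 to 37.1%) and 41.6% (34.9 to 48.6%) in the bins from 5 to 10, 10 to 20 and 20 to 40, with overlapping intervals. In the bins from 0 to 1 and from 1 to 2.5, Ebf1 was at 6.58 and 16.2 CPM, Ebf2 at 1.91 and 2.77 and Ebf3 at 2.02 and 4.90. Without the 9 barcodes with many Ebf1 UMIs, Ebf1 was at 2.66 CPM in barcodes with no Reln UMI, then at 3.76, 3.35 and 13.8 (8.05 to 22.1) in the bins up to 5. The single barcode above 40 had no UMI of these genes. The bin from 5 to 10 differed from the higher ones in make-up, with 14 of its 51 barcodes in the CR-like cluster, 12 in the Snhg11-led cluster and 29.4% with both Xist and Y-linked UMIs, and the part of these in the values was not tested. The 10 barcodes just outside the threshold, at 4.38 to 4.87 Reln UMIs per 10000, had Ebf1 in 5, Ebf2 in 2 and Ebf3 in 3, and the 10 just inside, at 5.22 to 6.28, had them in 2, 4 and 7.

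**Figure D4:**
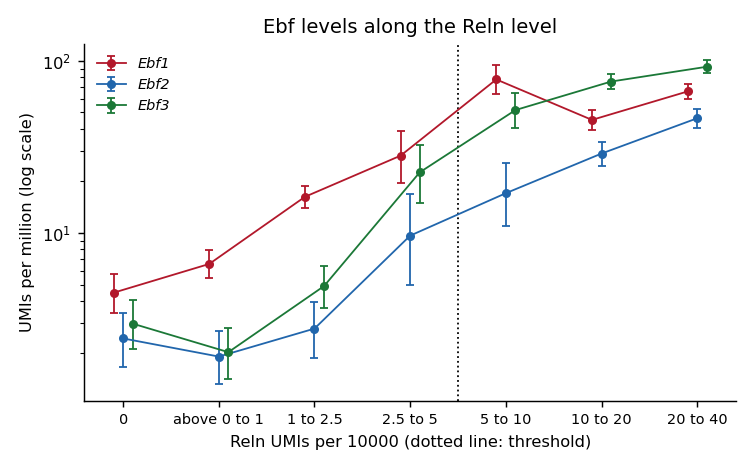
Ebf1, Ebf2 and Ebf3 in CPM on a log scale, in bins of Reln UMIs per 10000, with exact 95% Poisson intervals and a dotted line at the Reln-high threshold. Ebf2 and Ebf3 are higher in each bin from 2.5 upwards, reaching 46.3 and 92.2, and the Ebf1 value of 77.8 just above the threshold holds a barcode with 25 of 110 UMIs and is 61.0 without it.

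K-means clusters made without the Ebf genes and Reln showed where else the family was found. In the CR-like cluster of 395 barcodes, 61.9 CPM of Ebf1 (57.0 to 67.0), 37.4 of Ebf2 (33.6 to 41.4) and 84.4 of Ebf3 (78.8 to 90.4) were measured. A cluster of 176 barcodes led by Snhg11, a non-coding RNA of neurons, came next, with 90.7 CPM of Ebf1 (80.7 to 102), 29.2 of Ebf2 (23.7 to 35.6) and 31.0 of Ebf3 (25.3 to 37.6). It stayed unnamed, since no marker of the class it came closest to was among its leading genes, and 36 of its barcodes were Reln-high. In those 36 the levels were 81.4, 46.7 and 82.9 CPM, and in its 140 other barcodes 93, 24.8 and 18.1 CPM. Of the 247 Ebf1 UMIs of those 140 barcodes, 230 were in the 9 barcodes with many Ebf1 UMIs, and the 131 others were at 6.83 CPM of Ebf1 (3.98 to 10.9), 22.1 of Ebf2 (16.6 to 28.8) and 17.7 of Ebf3 (12.8 to 23.7). Without the 9, the whole cluster was at 22.5 CPM of Ebf1 (17.6 to 28.4), below the CR-like cluster, and at equal depth Ebf1 was found in 14.4% of its barcodes against 38.7% in the CR-like cluster. The 140 held 64.5% of the Ebf1 UMIs, 61.7% of the Ebf2 UMIs and 31.0% of the Ebf3 UMIs of all barcodes that were not Reln-high.

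The other clusters were low for all members. The cluster led by Neurod1, a proneural factor of newborn neurons, had 6.80 CPM of Ebf1, 3.70 of Ebf2 and 8.73 of Ebf3, but without its 22 Reln-high barcodes 4.54, 1.05 and 2.44. The deep-layer-like cluster led by Fezf2, the upper-layer-like cluster led by Rnd2 and the clusters led by Akap7 and Caln1 ranged from 2.28 to 6.71 CPM for Ebf1, from 1.09 to 1.33 for Ebf2 and from 2.72 to 4.67 for Ebf3, and the intervals of Ebf2 overlapped among all of them. By summed UMIs, Ebf1 was higher in the Rnd2-led cluster (6.71, 4.72 to 9.24) than in the Fezf2-led one (2.65, 1.84 to 3.71). At equal depth it was found in 3.86% (2.01 to 6.64%) and 2.44% of their barcodes (1.43 to 3.88%), with overlapping intervals. The radial glia-like cluster had 18 barcodes and 1, 1 and 2 UMIs, too few to place it. Ebf4 stayed between 0.380 and 1.81 CPM in the 7 larger clusters.

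**Figure D5:**
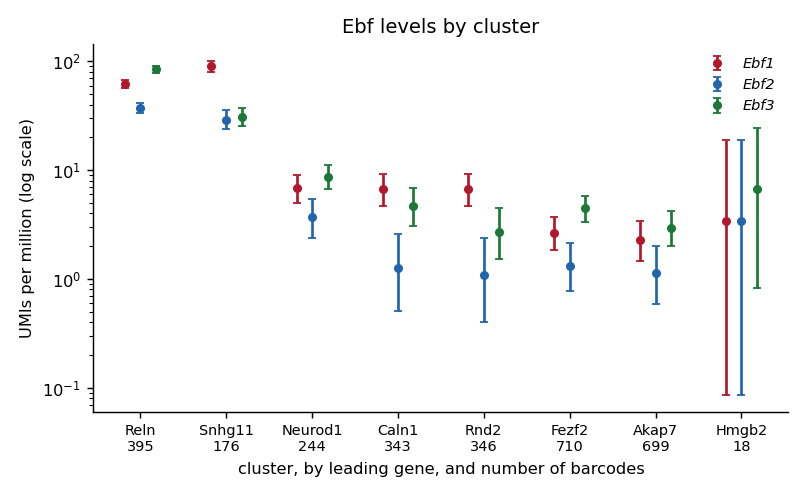
Ebf1, Ebf2 and Ebf3 in CPM on a log scale in the 8 clusters, named by leading gene with the number of barcodes below, with exact 95% Poisson intervals. The Reln-led CR-like cluster and the Snhg11-led cluster stand above the others, and the Ebf1 level of the Snhg11-led cluster (90.7) rests on 9 barcodes and is 22.5 without them.

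Barcodes with Lhx5, a LIM homeodomain factor of CR neurons, made up part of the signal outside the Reln-high group. The 61 barcodes with at least 2 Lhx5 UMIs that were not Reln-high, of which 42 were in the Snhg11-led cluster, had 45.7 CPM of Ebf1 (34.8 to 58.9), 19.4 of Ebf2 (12.5 to 28.6) and 39.5 of Ebf3 (29.4 to 51.9). Of the 59 Ebf1 UMIs in the 61 barcodes, 42 came from 2 barcodes, and without these the level was 13.5 CPM (7.88 to 21.7), with Ebf2 at 19.1 and Ebf3 at 37.4. The 2400 others had 7.85, 1.99 and 2.52 CPM. Ebf3 was thus lower in these 61 barcodes than in Reln-high barcodes, and its interval lay far above that of the remaining barcodes (2.06 to 3.05).

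The 9 barcodes with many Ebf1 UMIs and low Reln were all in the Snhg11-led cluster, and none reached the cutoffs for Xist and Y-linked UMIs. Their Ebf1 counts were 38, 28, 27, 27, 24, 24, 22, 22 and 18 UMIs, and the next highest barcode of the rest had 8. They had between 12851 and 32168 UMIs in total and from 0 to 4.80 Reln UMIs per 10000. Ebf2 was found in 5 of them and Ebf3 in 1, with 4 UMIs. The 12 Reln-high barcodes with 10 or more Ebf1 UMIs had Ebf2 in 6 and Ebf3 in 11. The share with Ebf3 was therefore 91.7% (61.5 to 99.8%) against 11.1% (0.281 to 48.2%). Over all barcodes at full depth these shares were 81.1% and 4.10%, so the contrast follows the Reln split and is given as a description of barcodes chosen after their values were seen.

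These 9 barcodes were not alike in other genes. Calb2, which encodes the calcium-binding protein calretinin, was found in 8 of them at 934 CPM against 205 in the other 131 barcodes of the cluster that were not Reln-high, but 123 of its 156 UMIs came from a single barcode. Isl1, a LIM homeodomain factor of striatal and other neurons, was found in 2 of the 9 with 6 and 10 UMIs, and in 2 of the 131. Both barcodes with Isl1 also had Gad1, which encodes the GABA-synthesising enzyme, with 4 and 1 UMIs. Neither had a UMI of Ebf2, Ebf3, Lhx5 or Snhg11. Of the other markers in the interneuron list, Dlx5 was found in 2 of the 9 (59.9 against 7.63 CPM). Gad2, Dlx1, Dlx2, Lhx6 and Sp8 were at 0 in the 9. Drd1 and Drd2, the dopamine receptors that define striatal projection neurons, and all 9 mural and meningeal markers were at 0. Of the other striatal markers, Ppp1r1b, which encodes a phosphatase inhibitor of these neurons, was found in 5 of the 9 (71.8 against 57.9 CPM), Rarb, a retinoic acid receptor, in 2 (29.9 against 6.03 CPM) and Six3 in none. Of the CR markers besides Reln, Trp73 and Lhx1 were found in 2 of the 9, Lhx5 and Nhlh2 in 4, Cacna2d2 in 3 and Ndnf in 1.

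Inside the Reln-high group, the level of Ebf1 moved with Calb2 and Zic1, a zinc finger factor of the medial forebrain. Over the 447 thinned barcodes, the genes most like Ebf1 by Pearson correlation of log counts were Calb2 (r = 0.39), Zic1 (0.33) and Cdkn1a, which encodes the cell cycle inhibitor p21 (0.30). Calb2 was at 684 CPM (658 to 710) in the 158 barcodes with an Ebf1 UMI and at 333 (320 to 346) in the 289 without, and Zic1 at 167 (154 to 180) and 85.0 (78.7 to 91.6). For barcodes with and without Ebf2 or Ebf3 the levels were closer. Calb2 was at 487 and 431 CPM for Ebf2 and 471 and 413 for Ebf3, and Zic1 at 106 and 115 for Ebf2 and 111 and 113 for Ebf3. Calb2 and Zic1 were picked by their correlation with Ebf1 in these same barcodes. The levels therefore restate that correlation, and a wider gap for Ebf1 than for Ebf2 and Ebf3 follows in part from the choice. The highest correlations of Ebf2 and Ebf3 with any gene in this group were 0.23 and 0.22, too weak in counts this sparse to name partners, and Ebf1 with Ebf2 and Ebf3 gave 0.03 and -0.06.

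Ebf1 and Ebf2 went in opposite directions when Reln-high barcodes were split at the median of their summed Rspo3 and Cdkn1a UMIs per 10000 UMIs (1.10), of which Rspo3 encodes a Wnt pathway activator of the cortical hem. At equal depth Ebf1 was found in 42.3% of 222 barcodes above the median and 28.4% of 225 at or below it, a difference of 13.9 points (5.04 to 22.5). Ebf2 was found in 23.0% and 35.6%, a difference of -12.6 points (-20.8 to -4.15). Ebf3 was found in 64.9% and 58.7%, a difference of 6.2 points (-2.80 to 15.05), so no change was detectable at this depth. The barcodes above the median were shallower, with a median of 19032 against 25391 UMIs. Within barcodes of at most 25000 UMIs the differences were 17.9 points for Ebf1 (5.84 to 28.9) and -18.7 for Ebf2 (-29.7 to -7.61), and within the CR-like cluster 13.1 (3.29 to 22.6) and -14.5 (-23.6 to -5.20). Cdkn1a was also among the genes most like Ebf1, so the split and that correlation are not separate observations.

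Depth itself was tied to the Ebf1 level. Reln-high barcodes above 25000 UMIs, 187 in number, had 42.7 CPM of Ebf1 (38.1 to 47.7) and 69.6 of Ebf3 (63.7 to 76.0), against 81.9 (74.0 to 90.3) and 95.9 (87.4 to 105) in the 283 others. Ebf2 was at 36.8 (32.5 to 41.5) and 32.8 CPM (27.9 to 38.3), where the intervals overlapped. Whether these deep barcodes hold more than 1 cell was not tested beyond the Xist and Y-linked count.

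Over all 2660 thinned barcodes, Ebf3 was most like Reln (r = 0.61), followed by Tmem163 (0.59), which encodes a zinc transporter, Nhlh2 (0.58), a helix-loop-helix factor, Nr2f2 (0.58), a nuclear receptor, and Lhx5 (0.57). Ebf2 was most like Snhg11 and Tmem163 (both 0.39), Lhx5 and Reln (both 0.38) and Cacna2d2, a calcium channel subunit (0.37). Ebf1 was most like Zic1 (0.37), E330013P04Rik, Tpbg and Reln (0.36 each) and Calb2 (0.36). The members were less like each other, with 0.28 for Ebf2 and Ebf3, 0.22 for Ebf1 and Ebf3 and 0.22 for Ebf1 and Ebf2. Reln also sets the split, so r over all barcodes takes in the contrast between the groups. Within the 447 Reln-high barcodes, r with Reln was 0.11 for Ebf3, 0.12 for Ebf2 and 0.096 for Ebf1. All points come from 1 library at 1 depth, and a low count limits r, so the order of genes within a list is a description.

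Transcripts of EBF partners, E proteins and Id factors were mixed. Of 9 such genes, 8 passed the minimum, 3 were at least 2-fold higher in Reln-high barcodes and 2 at least 2-fold lower. All genes tested gave 7.42% and 5.51%. The median log2 ratio of the 8 was -0.11. Of the 3 higher genes, Tcf12 alone was not an Id gene. Tcf12, an E protein, was at 38.1 against 12.9 CPM, a log2 ratio of 1.56 (1.38 to 1.74). Id4 and Id1, inhibitors of helix-loop-helix factors, had 1.37 (1.12 to 1.62) and 1.09 (0.63 to 1.53), whereas Id2, of the same family, had -1.48 (-1.52 to -1.43). Zfp521, a zinc finger protein known to bind and inhibit EBF1, had -1.32 (-1.55 to -1.10), and the related Zfp423 had -0.59 (-0.92 to -0.28).

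Neurogenic factors that act before or beside Ebf genes were lower or little different in Reln-high barcodes. Of 7, 5 passed the minimum, none was at least 2-fold higher (7.42% of all genes) and 3 were at least 2-fold lower (5.51% of all genes), namely Neurod6 at -1.89, Neurod2 at -1.69 and Insm1 at -1.35, while Neurog2 had -0.26 (-0.62 to 0.08). Of 11 forebrain factors linked to CR fate, 7 were at least 2-fold higher, against 7.42% of all genes tested. The 7 were Lhx1 (5.0), Trp73 (4.69), Nhlh2 (4.35), Lhx5 (4.33), Dmrta2 (3.97), Pax6 (3.33) and Emx2 (3.22), most of them markers used for naming clusters or known in CR neurons.

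Of the targets that EBF factors have in other tissues, 5 of 16 passed the minimum. Among these, 1 was at least 2-fold higher (7.42% of all genes tested) and 2 were at least 2-fold lower (5.51%). Counts this small do not describe the targets as a set. Of 7 B cell targets, Vpreb1 alone passed the minimum, with a log2 ratio of -0.77 (-1.54 to -0.08), and Cd79b and Blk had no UMI. Of 4 olfactory targets, Adcy3 had 0.10 (-0.22 to 0.41) and Gnal -1.48 (-1.73 to -1.23). Of 5 brown fat targets, 2 passed. Ppargc1a, a coactivator of mitochondrial genes that neurons also express, had 2.89 (2.60 to 3.18), and Cidea, a lipid droplet protein, had -1.55 (-2.08 to -1.06), while Ucp1 had 3 UMIs in all.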

How the data were processed

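The study's authors sorted Ebf2-EGFP positive cells, prepared about 3000 of them with the 10x Genomics Chromium protocol and deposited a matrix of counts (UMIs, not normalized) for 3000 barcodes. The submitters' processing notes name Cell Ranger 2.0.0, Seurat 2.0 and mm10. The study's cell annotation was not used here.

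Files were read with Python 3.11.15. A barcode needed 1000 detected genes and no more than 10% mitochondrial UMIs, which all met. The 2.3% with the highest Scrublet score (scanpy 1.11.5), 69 barcodes, were removed as likely doublets. After log scaling, 20 components of 2000 variable genes without the Ebf genes and Reln gave 8 K-means clusters (scikit-learn 1.9.0). A class name was given only to a cluster with at least 3 raised markers and a marker among its 10 leading genes. This rule was added with the data in view. Levels had exact Poisson intervals, ratios of summed counts exact conditional binomial intervals, shares Clopper-Pearson intervals and differences of shares Newcombe intervals (scipy 1.17.1). UMIs without replicate libraries allowed no p-value. Thinning drew the same number of UMIs (74.5% of the median total) from each barcode without replacement and left out 23 Reln-high and 248 other barcodes. A gene needed 100 UMIs for a 2-fold call.

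Named genes were the members, 6 lists of partners, regulators and targets, and for each member the 10 genes with the highest Pearson correlation of log(1 + thinned UMIs) over all thinned barcodes and the 5 highest within Reln-high ones, of which the leading ones are given. The members and lists were chosen with earlier results of these data known. Ratio and co-detection steps were tested on simulated data without the uneven spread seen for Ebf1, and the thinning step on part of the real barcodes. Coding sequences came from GENCODE transcripts of GRCm38 and were aligned with MAFFT 7.526. Alternatives changed the filter, doublet removal, Reln threshold, grouping, depth, draw and averaging. Of these, 3 were chosen after seeing the data. Some members of the lists are not reported here.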

Additional observations from a re-analysis of the deposited data

How the results depend on the processing

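No paired analysis was possible because the 8 labelled samples share 1 group and 1 matrix. No result changed direction among those with an interval clear of 0. Over 13 alternatives each, the log2 ratio ran from 2.32 to 4.02 for Ebf1, 3.34 to 3.99 for Ebf2 and 3.69 to 4.89 for Ebf3, with all 12 intervals above 0 (averaging gave none). That of Ebf4 ran from 0.75 to 1.39, with an interval above 0 in 5. Of the alternatives that passed outside the reported interval, Reln-high at 10 UMIs per 10000 gave 2.32 for Ebf1 and 4.02 for Ebf3, and the CR-like cluster in place of Reln-high gave 3.34 for Ebf2 and 3.69 for Ebf3. Without barcodes above 25000 UMIs, Ebf1 was 3.07 and Ebf3 4.79, and without those or any with Xist and Y-linked UMIs 3.09 and 4.85. Leaving out the 9 Ebf1-rich barcodes gave 4.02 for Ebf1, averaging each barcode's own values 2.89, and thinned UMIs 4.89 for Ebf3. Full depth gave detection of 44.9% for Ebf1, 45.5% for Ebf2, 81.1% for Ebf3, 3.83% for Ebf4 and 61.1% for at least 2 members, and thinning to a depth that every kept barcode reached gave 33.8% for the last. Ebf3 detection was 56.1% with a Reln threshold of 2.5, 66.5% without the deep barcodes and 66.4% when those with Xist and Y-linked UMIs were left out too. Another draw of the thinning moved the difference for Ebf1 and Ebf3 to 5.98 points, against -4.46, so that its sign rests on the draw. The interval for Ebf2 and Ebf3 was above 0 in 1 of 14 alternatives. With no minimum of UMIs, 4 members were at least 2-fold higher, the added one being Ebf4 on 48 UMIs, and at a fold of 4 it was 3. The shares of all genes at these cutoffs were not counted. The causes of these shifts were not tested. Ebf4, with 48 UMIs, and combinations found in few barcodes are limited by depth, and with 1 library no spread between embryos is known.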
